A study of Mus musculus with 8 samples.

Results

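The members described here are the genes that the authors' annotation places in the KEGG pathway Lysosome, with the cathepsins (symbols starting with Cts) set aside. By this rule 132 genes were members in each of the 2 deposited comparison tables and 129 in both, so that 135 of the 28712 genes of the series were members. No symbol was repeated among them. A mean normalized count of at least 10 was reached by 108 members in the comparison with sdAb-Con and by 107 in the comparison with the earlier time point, and these are the members tested. By their names they were sorted into 43 tested hydrolases and activators, 18 membrane proteins, 8 subunits of the V-ATPase, 30 sorting and trafficking genes and 9 genes that share a KEGG number but have no lysosomal role by name. All libraries came from 4T1, a cell line established from a mouse mammary carcinoma and used as a model of triple-negative breast cancer, so every value describes cultures of 1 line. The labels give RPMI 1640 medium and an atmosphere with 1% oxygen for all cells. sdAb#07.81 is a single-domain antibody against the stress protein NUPR1, given as a purified cell-penetrating protein with a degradation tag, and sdAb-Con is the control antibody, both at 0.5 μg/ml on confluent cells. The tables cover 3 of the 4 groups with 2 libraries each, namely sdAb-Con for 48 h, sdAb#07.81 for 24 h and sdAb#07.81 for 48 h; the libraries labelled Con were not analysed here.

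Lysosomes digest glycans, lipids, nucleic acids and proteins with hydrolases that work at acid pH. The V-ATPase, a rotary pump with a membrane sector (V0) and a cytosolic sector (V1), supplies the protons. New hydrolases receive a mannose 6-phosphate tag in the Golgi, are bound by the receptors Igf2r and M6pr and leave the Golgi in carriers built with adaptor proteins and clathrin. Heavily glycosylated membrane proteins such as Lamp1 and Lamp2 line the limiting membrane. Lysosomal β-galactosidase, the product of Glb1, is the enzyme behind the senescence-associated β-galactosidase stain that the study used as a senescence marker.

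Whole read counts of each library could be worked out from the deposited means for 14155 of 14215 tested genes, among them every tested member. Totals of the counts worked out ran from 14337530 to 17304621 per library. They leave out 36 tested genes with counts too high to be solved and 24 with no solution. Normalized counts below are these counts divided by the library's size factor. The libraries of a group are called A and B in no order, because the replicate numbers of the labels could not be tied to them. Nothing in the labels says that they came from separate cultures, so p-values measure the spread between libraries, which may be technical. All 8 epithelial markers were expressed, with Cdh1 highest. Of 10 leukocyte markers, including those of macrophages, only Cd14 reached a mean of 10, and the summed level was 176 to 182 at 24 h against 79.7 to 101 in the libraries at 48 h. The summed level of the fibroblast markers was 1169 to 1245 at 24 h and 750 to 827 at 48 h, most of it Pdgfra, while Col1a1 and Col1a2 were not in the tables. The 24 h libraries stood apart from each other on Col3a1, Dcn and Thy1. Col3a1 was at 145 in library A and 0 in library B, against 83.8 to 129 in the libraries at 48 h. Dcn was at 47.4 and 2.85, against 30.4 to 43.8 at 48 h, and Thy1 at 21.9 and 1.9, against 5.18 to 13. The part of these markers in the results was not tested. Nupr1 transcripts, whose protein is the target, were at 3551 and 2977 in sdAb-Con (48 h), 1544 and 2120 in sdAb#07.81 (24 h) and 2898 and 2899 in sdAb#07.81 (48 h).

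In cells given sdAb#07.81, more of the lysosomal genes were called higher than lower at 48 h against 24 h, and 53 of 107 were not called. Against sdAb-Con (48 h), 92 of 108 were not called, and 85 of 108 log2 fold changes lay below 0. Between 24 h and 48 h of sdAb#07.81, 36 of 107 tested members were higher at 48 h, or 33.6%, where 19.8% of all tested genes were. Another 18 members were lower, or 16.8%, where 22.1% of all tested genes were. The median log2 fold change was 0.19 over the members and -0.01 over all genes tested. Against sdAb-Con (48 h), 2 of 108 members were higher, or 1.85%, where 9.9% of all tested genes were, and 14 were lower, or 13%, where 6.75% of all tested genes were. The median here was -0.16 over the members and -0.02 over all genes tested. A member counts as higher or lower when the deposited two-sided Wald p, adjusted over all tested genes by the Benjamini-Hochberg method, was under 0.05. Both comparisons share the sdAb#07.81 (48 h) libraries, so their values stand side by side only.

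The calls against sdAb-Con changed with the processing. Once the dependence of fold changes on GC content, mean count and the length of transcripts (the trend, below) was removed, 3 members were called in place of 16, and Gusb and Gnptg were those kept. A limma fit to the counts of single libraries called 8 of the 16, a fit with upper-quartile scaling called 2 higher and 3 lower, and without sdAb#07.81 (48 h) library A limma called 0 of 107, with 12 at an unadjusted p under 0.05. The comparison over time held 54 calls with the trend removed, 51 of them the same genes, and limma called 53, 52 of them the same. Of the 24 h libraries that stood apart on fibroblast markers, leaving out library A gave 36 higher and 16 lower by limma, and leaving out library B gave 31 higher and 15 lower, where both together gave 35 and 18.

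In each library the tested members together held a small share of the normalized counts worked out. The 36 tested genes with counts too high to be solved are not in this total, so shares of all counts would be smaller. The share was 0.86% and 0.872% in the sdAb#07.81 (24 h) libraries, 1.03% and 1.04% at 48 h, and 1.14% and 1.07% in sdAb-Con (48 h). Both 24 h libraries were below the other 4. By class, the summed normalized count of hydrolases and activators was 39036 and 41575 at 24 h, 50901 and 52640 at 48 h, and 61894 and 55283 in sdAb-Con. That of the V-ATPase subunits was 6067 and 5528 at 24 h, 7551 and 7786 at 48 h, and 8857 and 8413 in sdAb-Con. Sorting genes varied least of the 4 lysosomal classes as a sum, with 48560 and 48309 at 24 h, 53764 and 51882 at 48 h, and 53532 and 49459 in sdAb-Con.

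**Figure D1:**
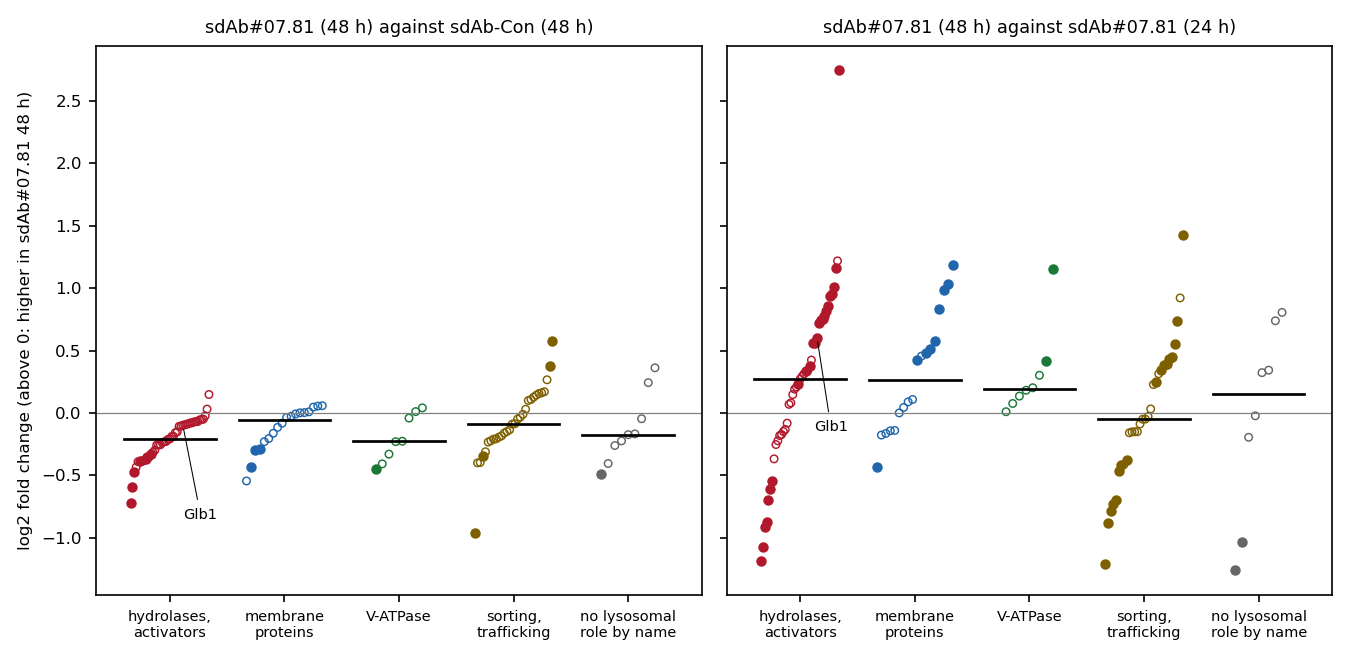
Log2 fold change of every tested member by class, with sdAb#07.81 (48 h) against sdAb-Con (48 h) on the left and against sdAb#07.81 (24 h) on the right; values above 0 are higher in sdAb#07.81 (48 h), filled points were called at an adjusted p under 0.05 and lines mark class medians. On the right the medians of hydrolases and membrane proteins sit at 0.27 while that of the sorting genes is -0.05, and on the left all class medians lie between -0.23 and -0.06.

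Among hydrolases and activators, 17 of 43 were higher at 48 h than at 24 h of sdAb#07.81, or 39.5%, and 7 were lower, or 16.3%. Of all tested genes 19.8% were higher and 22.1% lower. The class median was 0.27. Against sdAb-Con 7 were lower, or 16.3%, and none was higher, where 6.75% and 9.9% of all tested genes were. The median there was -0.21. Limma called 3 lower and none higher, and 14 were lower and none higher at an unadjusted p under 0.05. The V-ATPase subunits had 2 of 8 higher over time, or 25%, near the 19.8% of all tested genes, and none lower, with a median of 0.19. At an unadjusted p under 0.05, 3 were higher and none lower, and limma called 2 higher and none lower. Membrane proteins had 8 of 18 higher over time, or 44.4%, and 1 lower, or 5.56%, with a median of 0.27. Of the sorting genes 9 of 30 were higher, or 30%, and 8 lower, or 26.7%, with a median of -0.05, where 19.8% and 22.1% of all tested genes were higher and lower. For comparison, of 9 tested cathepsins of the same pathway 5 were higher over time, or 55.6%, and 1 was lower, or 11.1%.

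Glb1, the lysosomal β-galactosidase, is listed as ENSMUSG00000045594 on the plus strand of chromosome 9 from 114230144 to 114303966. Its normalized count was 1635 and 1674 in sdAb-Con (48 h), 990 and 1034 in sdAb#07.81 (24 h), and 1543 and 1536 in sdAb#07.81 (48 h). The 24 h libraries were thus the lowest, and those of both antibodies at 48 h lay close together. Over time Glb1 rose 1.52-fold, or by 0.60 on the log2 scale (standard error 0.108, adjusted p 2.31e-07). Against sdAb-Con the log2 fold change was -0.10 (standard error 0.0899, adjusted p 0.519). Its 95% interval was -0.27 to 0.08, with an upper end at a 1.06-fold higher level with sdAb#07.81. This interval rests on 2 libraries per group and is not a firm limit. By limma the standard error was 0.112. With the trend removed the log2 fold change came to 0.00. The start of the Glb1 span also holds Tmppe, a gene on the same strand from 114230173 to 114236344 that the annotation gives the KEGG number of Glb1. Tmppe went the other way, with 99.4 and 85.4 at 24 h and 44.5 and 45.6 at 48 h, a log2 fold change of -1.04 and an adjusted p of 0.00732. How reads in the shared 6172 bases were divided between these genes is not given in the sources used here.

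Most of the called glycosidases, which strip sugars from glycoproteins and glycolipids, moved in the same direction as Glb1 over time. Of 20 tested, 10 were higher at 48 h than at 24 h of sdAb#07.81, or 50%, and 2 were lower, or 10%. Of all tested genes 19.8% were higher and 22.1% lower. Glb1 had the 7th largest log2 fold change of the 20. Hexa encodes the α subunit of β-hexosaminidase A, which acts on the ganglioside GM2. Hexa was at 309 and 285 at 24 h, 507 and 493 at 48 h, and 635 and 660 in sdAb-Con. Its rise over time was 0.75 on the log2 scale (adjusted p 2.49e-05). Fuca1, a fucosidase, was at 417 and 483 at 24 h, 710 and 795 at 48 h, and 939 and 919 in sdAb-Con, a rise of 0.74 (adjusted p 3.71e-06). Neu1, the lysosomal sialidase, rose by 0.95, and Manba and Galc by 0.56 each. All of these had sdAb-Con libraries above the 24 h libraries as well, with Neu1 at 557 and 424 in sdAb-Con, 222 and 165 at 24 h, and 326 and 423 at 48 h.

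Hyal3, a hyaluronidase family member, had the largest change over time of the 107 tested members. It was at 4.56 and 17.1 in the 24 h libraries, 72.5 and 71.7 at 48 h, and 95.1 and 84.9 in sdAb-Con. The log2 fold change was 2.74 (standard error 0.515, adjusted p 8.11e-07), and the level at 24 h rested on 5 and 18 reads. Its span on chromosome 9, 107458017 to 107464558, overlaps those of Hyal1 and Naa80 on the same strand. Naa80 was at 164 and 119 at 24 h and 137 and 142 at 48 h, and Hyal1 at 197 and 176 at 24 h and 228 and 273 at 48 h, and neither was called.

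Gusb, β-glucuronidase, was lower in sdAb#07.81 (48 h) than in either other group. Its normalized count was 1420 and 1534 in sdAb#07.81 (24 h), 960 and 1006 in sdAb-Con (48 h), and 603 and 696 in sdAb#07.81 (48 h). The 3 groups did not overlap. From 24 h to 48 h it fell by 1.19 on the log2 scale (standard error 0.124, adjusted p 5e-20), and it was 1.51-fold lower than in sdAb-Con, with -0.59 on the log2 scale (standard error 0.122, adjusted p 4.43e-05). With the trend removed the adjusted p against sdAb-Con was 0.00496. Against sdAb-Con 6 of 20 glycosidases were lower, or 30%, and none was higher, where 6.75% and 9.9% of all tested genes were. Limma called 2 lower and none higher, and 10 were lower and none higher at an unadjusted p under 0.05. Aga, which cleaves asparagine-linked glycans, was at 603 and 551 in sdAb-Con and 428 and 400 with sdAb#07.81, a log2 fold change of -0.47 (adjusted p 0.00634). Hexa was at -0.37, Gaa at -0.36 and Man2b1 at -0.33, and without the trend only Gusb among the 6 was called. Gaa, the acid α-glucosidase lost in Pompe disease, was at 1359 and 1431 in sdAb-Con, 807 and 864 at 24 h, and 1157 and 1014 at 48 h.

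**Figure D2:**
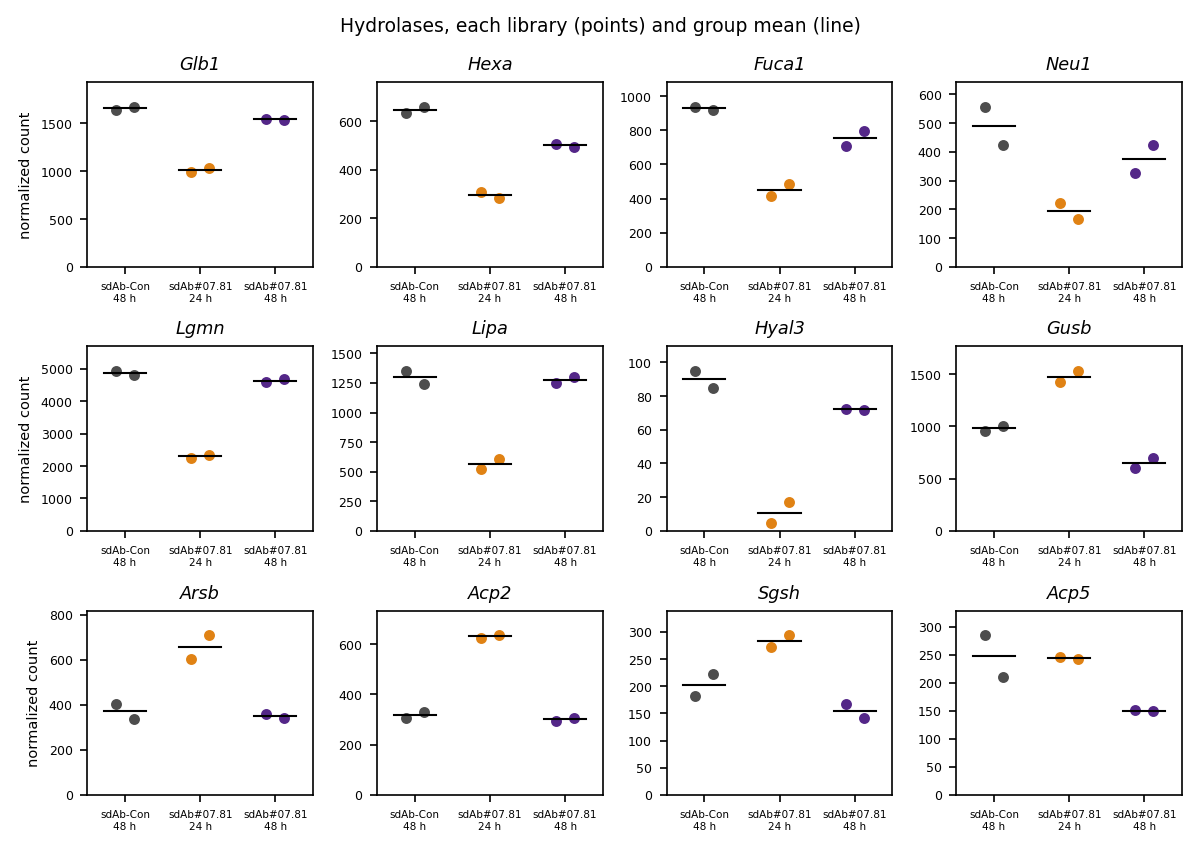
Normalized count of 12 hydrolases in each library (points) with the group mean (line); the vertical axes start at 0 and differ in scale. Glb1, Hexa, Fuca1, Neu1, Lgmn, Lipa and Hyal3 have their lowest libraries at 24 h of sdAb#07.81, while Gusb, Arsb, Acp2 and Sgsh have their highest there.

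Lgmn, the asparaginyl endopeptidase legumain that matures cathepsins, rose between the time points, with libraries of each group close together. It was at 2264 and 2342 at 24 h, 4579 and 4679 at 48 h, and 4946 and 4804 in sdAb-Con. The log2 fold change over time was 1.01 (standard error 0.0898, adjusted p 2.97e-27), and against sdAb-Con it was -0.07 (adjusted p 0.636). The proteases Tpp1 and Napsa were not called in either comparison, although limma called Napsa higher over time.

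Of 6 lipid hydrolases, 3 rose over time, or 50%, and none fell, where 19.8% and 22.1% of all tested genes did. The counts were the same at an unadjusted p under 0.05 and by limma. Lipa, the acid lipase that frees cholesterol from its esters, was at 526 and 609 at 24 h, 1246 and 1298 at 48 h, and 1355 and 1238 in sdAb-Con, a log2 fold change over time of 1.16 (adjusted p 1.87e-18). Smpd1, acid sphingomyelinase, was at 304 and 267 at 24 h, 508 and 468 at 48 h, and 537 and 499 in sdAb-Con, with a change of 0.77 over time. Asah1, acid ceramidase, changed by 0.34. Of the activators and lumenal binding proteins, Gm2a rose by 0.85, the cholesterol carrier Npc2 by 0.72 and the saposin precursor Psap by 0.23. Psap was not called by limma or with the trend removed. Npc2 was at 5368 and 6087 at 24 h, 8726 and 10163 at 48 h, and 12580 and 9340 in sdAb-Con.

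Sulfatases and acid phosphatases, which remove sulfate and phosphate groups, took the opposite course where they were called. Arsb, which acts on dermatan sulfate, was at 604 and 713 at 24 h, 359 and 341 at 48 h, and 406 and 336 in sdAb-Con, and fell by 0.91 over time (adjusted p 5.54e-08). Sgsh, which acts on heparan sulfate, was at 272 and 295 at 24 h, 167 and 142 at 48 h, and 183 and 223 in sdAb-Con, a fall of 0.88 (adjusted p 0.000145). Sumf1, the enzyme that activates all sulfatases, also fell, with a log2 fold change of -0.55 (adjusted p 0.00358). Arsa, with -0.17, Galns, with 0.34, and Ids, with 0.08, were not called. The phosphatase Acp2 was at 623 and 638 at 24 h, 294 and 306 at 48 h, and 305 and 328 in sdAb-Con, a fall of 1.07 over time (adjusted p 6.01e-11). Acp5, tartrate-resistant acid phosphatase, stood out in another way, at 246 and 242 at 24 h, 286 and 210 in sdAb-Con, and 151 and 150 in sdAb#07.81 (48 h). Its log2 fold change was -0.70 over time (adjusted p 0.00359) and -0.72 against sdAb-Con (adjusted p 0.0098), the latter not called with the trend removed (adjusted p 0.257). Acp2 shares 2527 bases of its span with Ddb2 on the other strand, and whether counting used strand is not given in the sources used here.

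Many lysosomal promoters carry the E-box CACGTG, the core of the element read by Tfeb and its relatives, so the windows from 250 bases before to 50 bases after RefSeq start sites (build GRCm38.p6) were searched for it. The letters read the same on both strands. RefSeq windows were found for 93 of the 135 members, and 20 of these, or 21.5%, held CACGTG, against 8.09% of all 27025 genes. Per window of 300 bases the share was 19.3% of 109 member windows and 7.15% of all 32851. The longer form TCACGTGA, which contains the shorter, was found in 8 members, or 8.6%, against 1.12% of all genes. The stretches below, with the E-box in capitals, show for each gene the copy nearest before the start site. They are limited to Glb1, Lamp1 and members among the 3 called with the largest change per comparison, class and direction. Other members that hold the E-box, among them Gaa, Sgsh, Sumf1, Mcoln1, Igf2r and Gga2, are not shown. Atp6v0b and Cln3 each held another copy farther away, 36 and 149 bases before the start, and Nagpa one 5 bases after it.

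Glb1, chr9:114401018-114401047, plus strand, E-box 48 bases before the start: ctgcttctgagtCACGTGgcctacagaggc
Lgmn, chr12:102439124-102439153, minus strand, 49 bases before: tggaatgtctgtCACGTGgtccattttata
Lamp1, chr8:13159134-13159163, plus strand, 15 bases before: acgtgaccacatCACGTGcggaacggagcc
Atp6v0b, chr4:117887330-117887359, minus strand, 18 bases before: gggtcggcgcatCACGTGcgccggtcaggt
Cln3, chr7:126583340-126583369, minus strand, 121 bases before: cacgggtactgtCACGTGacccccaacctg
Nagpa, chr16:5204005-5204034, minus strand, 10 bases before: ctggcctggaatCACGTGgggcgagcccac
Gnptg, chr17:25240120-25240149, minus strand, 21 bases before one listed start and 3 after another: ccggctgtcactCACGTGaccgtgagaccc

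These genes did not share a direction. Over time Glb1, Lgmn and Atp6v0b rose, Cln3 and Nagpa fell, and neither Gnptg nor Lamp1, whose window held the E-box 4 times, was called. Of 19 tested members with CACGTG, 6 were higher over time and 4 lower, with a median of -0.05. Of 63 without it 22 were higher and 12 lower, with a median of 0.08. For all tested genes the shares were 19.8% higher and 22.1% lower. A match describes letters only.

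Lamp1 and Lamp2, the main glycoproteins of the lysosomal membrane, differed in their course. Lamp1, listed as ENSMUSG00000031447 on chromosome 8 from 13209161 to 13225338, was at 10215 and 8311 in sdAb-Con, 9098 and 8518 at 24 h, and 7543 and 8192 at 48 h of sdAb#07.81. Its log2 fold change was -0.16 over time (adjusted p 0.141) and -0.23 against sdAb-Con (adjusted p 0.194), with 95% intervals of -0.34 to 0.02 and -0.47 to 0.01. Without the trend the value over time was -0.28 and was called (adjusted p 0.00669). Lamp2 was at 3857 and 3992 at 24 h, 5411 and 5809 at 48 h, and 6522 and 4808 in sdAb-Con. It rose by 0.51 over time (adjusted p 1.18e-07), and its value against sdAb-Con was -0.01 with an interval of -0.28 to 0.26. Per kilobase of transcript, Lamp1 had the highest mean level of all members at 24 h, 3952 normalized counts, and Laptm4a followed with 2475; at 48 h of sdAb#07.81 their levels were 3530 and 3703.

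Scarb2, a major glycoprotein of the lysosomal membrane, was at 1225 and 1147 at 24 h, 2452 and 2406 at 48 h, and 2339 and 2355 in sdAb-Con. The log2 fold change over time was 1.03 (standard error 0.102, adjusted p 1.53e-22). Cd68, a glycoprotein abundant in macrophages, was at 268 and 235 at 24 h, 497 and 647 at 48 h, and 1034 and 642 in sdAb-Con, and rose by 1.18 over time (adjusted p 1.02e-09). Of its sdAb-Con libraries A was the highest of all and B lay next to a library of sdAb#07.81 (48 h), and against sdAb-Con it was not called (adjusted p 0.367). Leukocyte markers other than Cd14, among them Ptprc, Adgre1 and Csf1r, were at most 7.6 in any library.

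Among 8 transporters and channels, 3 rose over time, or 37.5%, and 1 fell, or 12.5%, where 19.8% and 22.1% of all tested genes did. Against sdAb-Con none was called, also at an unadjusted p under 0.05 and by limma. Of all tested genes 9.9% were higher and 6.75% lower there. Slc17a5, the sialic acid exporter sialin, was at 330 and 282 at 24 h, 592 and 622 at 48 h, and 581 and 636 in sdAb-Con, a change of 0.99 over time (adjusted p 9.26e-09). Npc1, which takes cholesterol over from Npc2, was at 514 and 491 at 24 h, 980 and 816 at 48 h, and 897 and 895 in sdAb-Con, a change of 0.84. The cystine exporter Ctns changed by 0.48 (adjusted p 0.0258). Cln3, lost in juvenile Batten disease, was highest at 24 h with 438 and 476, against 344 and 333 at 48 h, and fell by 0.43 (adjusted p 0.0213). The calcium channel Mcoln1 was at 504 and 486 at 24 h and 438 and 462 at 48 h and was not called (adjusted p 0.491). Of the remaining membrane proteins Laptm4a rose over time by 0.58, and Litaf and Laptm4b were lower than in sdAb-Con by deposited test, at -0.30 and -0.29. Cd63, a tetraspanin of late endosomes, was at 7353 and 6254 in sdAb-Con and 4292 and 5753 with sdAb#07.81 (48 h), a log2 fold change of -0.43 (adjusted p 0.0236). With the trend removed none of these 3 was called, and their adjusted p was 0.173, 0.694 and 0.314.

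**Figure D3:**
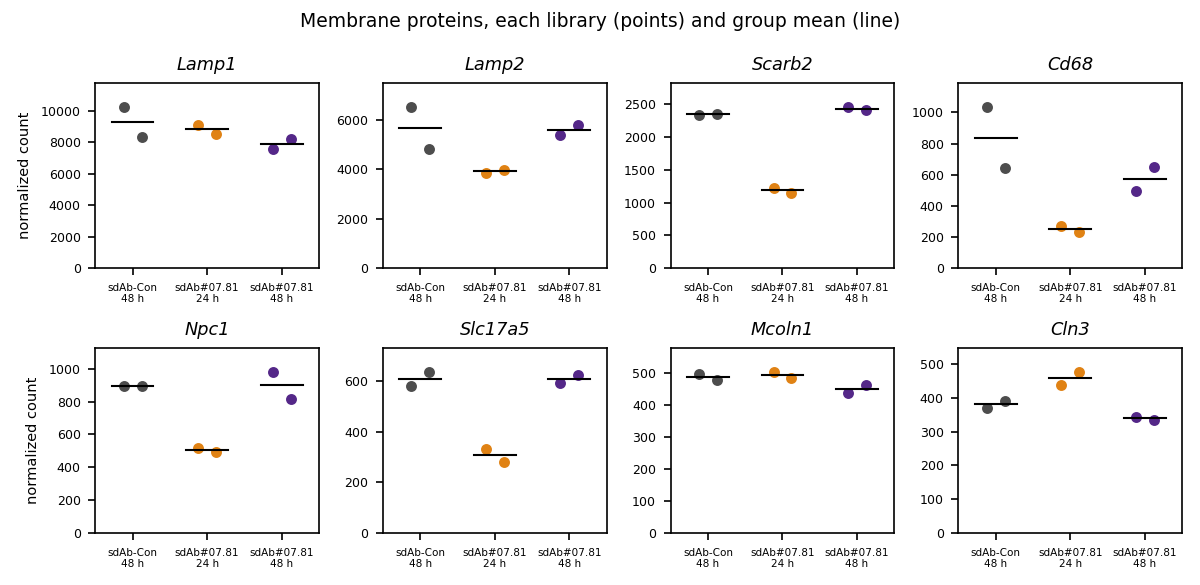
Normalized count of 8 lysosomal membrane proteins in each library (points) with the group mean (line); the vertical axes start at 0 and differ in scale. Lamp2, Scarb2, Cd68, Npc1 and Slc17a5 are lowest in both libraries at 24 h of sdAb#07.81, and Cln3 is highest there. Lamp1 and Mcoln1 were not called in either comparison by the deposited test.

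Tcirg1, the a3 isoform of the largest V0 subunit and the form that osteoclasts use in bone resorption, had the largest change over time of the V-ATPase. It is listed as ENSMUSG00000001750 on the minus strand of chromosome 19 from 3946050 to 3957133. Its normalized count was 985.5 and 1070 at 24 h, 2258 and 2331 at 48 h, and 2249 and 2228 in sdAb-Con. Over time it rose 2.23-fold, by 1.16 on the log2 scale (standard error 0.104, adjusted p 9.06e-27). Against sdAb-Con the value was 0.04, with a 95% interval of -0.12 to 0.21. The alternative isoforms of the same subunit did not follow. Atp6v0a1 was at 531 and 607 at 24 h and 670 and 530 at 48 h, and Atp6v0a2 at 659 and 524 at 24 h and 650.1 and 650.5 at 48 h, and neither was called. Atp6v0a4, the isoform of kidney cells, stayed under 10 in all libraries.

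Atp6v0b, a proteolipid of the rotor ring, was the other subunit called over time. It was at 756 and 551 at 24 h, 851 and 897 at 48 h, and 1287 and 1112 in sdAb-Con. It was higher than at 24 h by 0.42 (adjusted p 0.0209) and lower than in sdAb-Con, with a log2 fold change of -0.45 (adjusted p 0.00174), so that its 48 h libraries lay between the other groups. Neither call held with the trend removed (adjusted p 0.194 and 0.734). The ring subunit Atp6v0c and the stalk subunit Atp6v0d1 showed the same order of groups without passing the test, and reads of Atp6v0c may be shared with its copy Atp6v0c-ps2, which was at 586 and 548 in sdAb-Con, 370 and 272 at 24 h, and 361 and 444 at 48 h.

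The KEGG list holds only 8 tested subunits, so the whole pump was read from a list of 20 tested subunits. Over time 7 rose, or 35%, where 19.8% of all tested genes did, and none fell, where 22.1% did. Against sdAb-Con 2 were lower, or 10%, near the 6.75% of all tested genes, and none was higher. Limma gave the same counts, and at an unadjusted p under 0.05, 8 were higher and none lower over time, and 8 lower and none higher against sdAb-Con. Apart from Tcirg1 and Atp6v0b, those higher at 48 h were Atp6v1g1 and Atp6v1e1 of the peripheral stalks with 0.61 and 0.52, Atp6v0e with 0.45, Atp6v0e2 with 0.79 and Atp6v1d of the central stalk with 0.40. Of the catalytic core, Atp6v1a had a log2 fold change of 0.04 and Atp6v1b2 one of 0.09, and neither was called. Atp6v1a was at 2846 and 2576 at 24 h, 2664 and 2930 at 48 h, and 3264 and 2895 in sdAb-Con. Atp6v1f was lower than in sdAb-Con with -0.46 (adjusted p 0.0181). Atp6v1h was called against sdAb-Con only with the trend removed (adjusted p 0.0348).

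**Figure D4:**
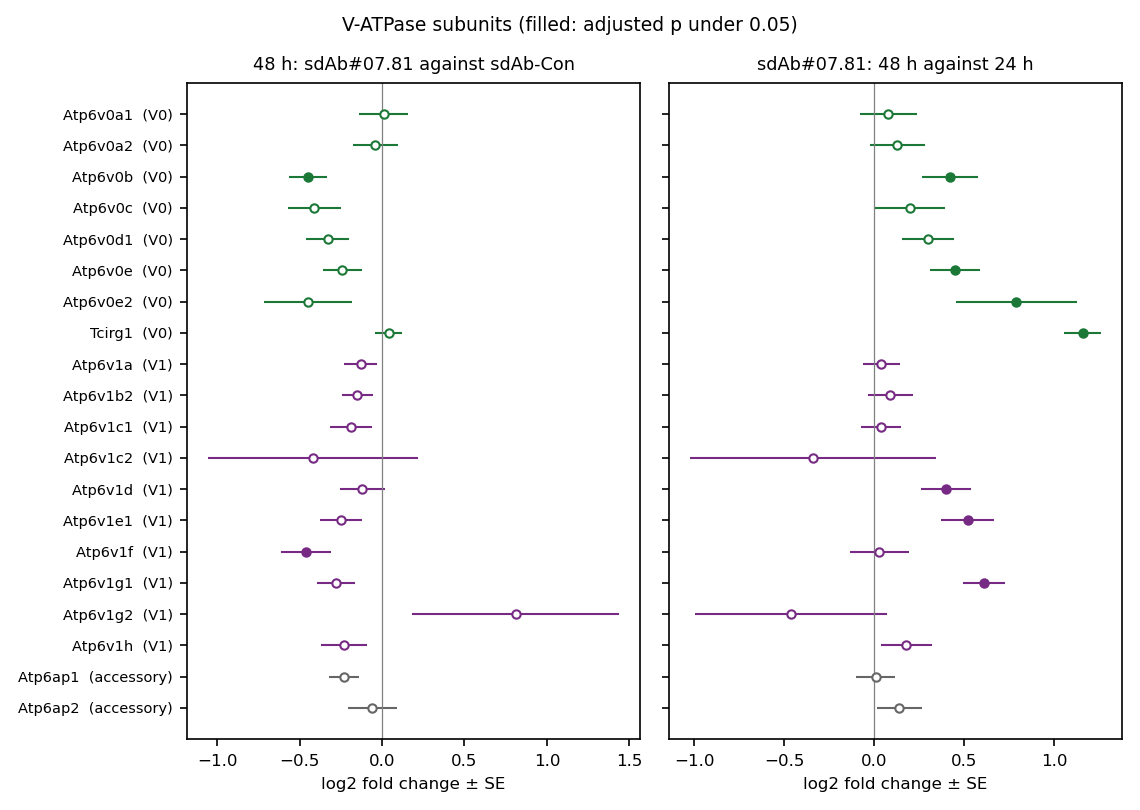
Log2 fold change with its standard error for 20 V-ATPase subunits, with sdAb#07.81 (48 h) against sdAb-Con (48 h) on the left and against sdAb#07.81 (24 h) on the right; green marks V0, purple V1, grey accessory proteins and filled points an adjusted p under 0.05. Tcirg1 at 1.16 lies farthest to the right over time, and Atp6v0b and Atp6v1f are the 2 filled points on the left.

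Sortilin (Sort1), a Golgi receptor that sends prosaposin and other cargo to lysosomes, had the largest rise of the sorting genes. It was at 48.3 and 55.0 at 24 h, 150.1 and 128 at 48 h, and 119.9 and 169.8 in sdAb-Con, a rise over time of 1.43 on the log2 scale (standard error 0.298, adjusted p 1.1e-05). The smaller mannose 6-phosphate receptor, M6pr, rose by 0.35 (adjusted p 0.00336). The larger receptor, Igf2r, was at 5600 and 7245 at 24 h, 6754 and 5660 at 48 h, and 5438 and 5641 in sdAb-Con, and was not called. The enzymes that make the tag did not rise. Gnptab, the catalytic chain of the phosphotransferase, was at 1511 and 1426 at 24 h and 1502 and 1381 at 48 h. Gnptg, its γ chain, was at 136 and 157 in sdAb-Con, 101 and 97.7 at 24 h, and 73.5 and 76.0 at 48 h of sdAb#07.81. It was lower than in sdAb-Con by -0.97 on the log2 scale (standard error 0.253, adjusted p 0.00223), the lowest value of any tested member there, and the call held with the trend removed (adjusted p 0.0146). The span of Gnptg shares 1113 bases with Unkl on the other strand. Nagpa, which uncovers the tag, was at 64.7 and 75.9 at 24 h and 39.3 and 36.9 at 48 h, a fall of 0.88 over time (adjusted p 0.045).

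The adaptor complexes differed in direction. In AP-3, which carries membrane proteins to late endosomes, 4 of 6 subunits rose over time, or 66.7%, and 1 fell, or 16.7%. Of all tested genes 19.8% were higher and 22.1% lower. Ap3m2 rose by 0.74, Ap3s1 by 0.55, Ap3s2 by 0.43 and Ap3m1 by 0.25. The large AP-3 subunit Ap3d1 fell, from 2321 and 2149 at 24 h to 1358 and 1233 at 48 h, with 1222 and 1205 in sdAb-Con. This was a change of -0.79 (standard error 0.107, adjusted p 2.52e-12). The other large subunit, Ap3b1, was at 2255 and 2395 at 24 h and 2328 and 2432 at 48 h. Ap3m1 was not called by limma.

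In AP-1, which works between the Golgi and endosomes, 3 of 8 subunits fell over time, or 37.5%, and none rose, by the deposited test and by limma. Of all tested genes 22.1% were lower and 19.8% higher. At an unadjusted p under 0.05, 1 was higher by the deposited test and 2 by limma. Ap1m1 was at 687 and 630 at 24 h, 413 and 383 at 48 h, and 350 and 456.5 in sdAb-Con, a fall of 0.73 (adjusted p 7.54e-06). Ap1g2 fell by 0.70 and Ap1s1 by 0.42. Against sdAb-Con, Ap1g1 was higher, at 3338 and 3105 against 2488 and 2481, a log2 fold change of 0.38 (adjusted p 0.000293), and Ap1s1 was lower, at -0.34 (adjusted p 0.0138). In AP-4, 3 of 4 subunits fell over time, or 75%, of which Ap4e1 was not called with the trend removed (adjusted p 0.0614). Ap4s1 was at 82.96 and 120.5 at 24 h and 41.4 and 46.7 at 48 h, a change of -1.21 (standard error 0.347, adjusted p 0.00193). Ap4e1 was at 675 and 630 at 24 h, 542 and 463 at 48 h, and 358 and 318 in sdAb-Con. It was thus lower than at 24 h (-0.38, adjusted p 0.0284) and higher than in sdAb-Con (0.58, adjusted p 0.0029), with no overlap between the 3 groups. With the trend removed Ap1g1, Ap1s1 and Ap4e1 were not called against sdAb-Con (adjusted p 0.429, 0.909 and 0.0799). The spans of Ap4s1 and Ap4m1 overlap more strongly expressed genes on the other strand, among them Strn3 for Ap4s1, and Mcm7 and Taf6 for Ap4m1.

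Clathrin heavy chain, Cltc, and the light chain Cltb rose over time by 0.39 each, and Clta, with 0.23, was not called (adjusted p 0.0643). Of the GGA adaptors, which read the tails of the sorting receptors, Gga2 rose by 0.45 (adjusted p 0.00392), and Gga1 and Gga3 were not called. None of the 6 clathrin and GGA genes was called against sdAb-Con, where 9.9% of all tested genes were higher and 6.75% lower. At an unadjusted p under 0.05 Gga1 and Clta were lower there, and by limma neither was called.

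**Figure D5:**
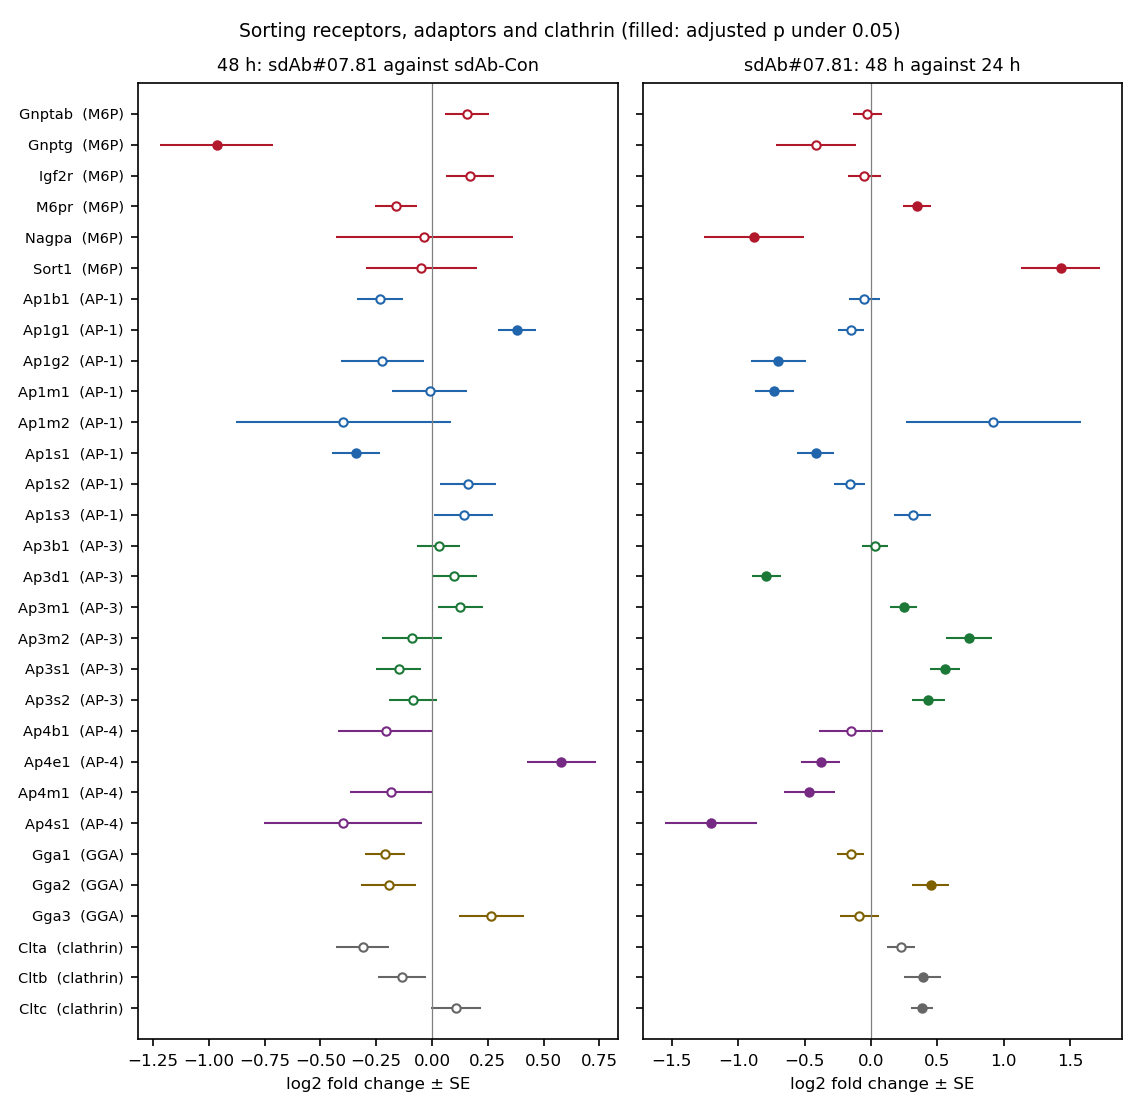
Log2 fold change with its standard error for the 30 tested sorting and trafficking genes, grouped by tag and receptor genes (M6P), AP-1, AP-3, AP-4, GGA and clathrin; the left panel compares sdAb#07.81 (48 h) with sdAb-Con (48 h), the right panel with sdAb#07.81 (24 h), and filled points had an adjusted p under 0.05. Over time 4 filled AP-3 points lie to the right of 0, with Ap3b1 unfilled at 0.03 and Ap3d1 at -0.79, 3 filled AP-1 and 3 filled AP-4 points lie to the left, and Sort1 is at 1.43.

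Outside the KEGG list, the factors that switch on lysosomal genes were read from a list of 16 tested regulators and proteins of the lysosomal mTORC1 platform. Over time 4 of the 16 rose, or 25%, near the 19.8% of all tested genes, and 1 fell, or 6.25%, where 22.1% did. Limma called 5 higher and 1 lower. Tfeb itself was at 92.1 and 111 at 24 h, 156 and 140 at 48 h, and 154 and 161.5 in sdAb-Con, and its log2 fold change of 0.55 was not called (adjusted p 0.0786), while limma called it (0.55, adjusted p 0.0299). Its relatives Tfe3 and Mitf were at 0.14 and 0.15 and were not called. Lamtor2, part of the Ragulator scaffold, was at 354 and 392 at 24 h, 696 and 767 at 48 h, and 830 and 873 in sdAb-Con, a rise of 0.97 (adjusted p 8.65e-10). Lamtor1, the anchor of the same scaffold, fell by 0.58 (adjusted p 0.00297). The arginine sensor Slc38a9 rose by 0.61, Flcn by 0.42 and its partner Fnip1 by 0.38. Against sdAb-Con 2 of the 16 were higher, Fnip1 and Fnip2, and 2 were lower, Lamtor1 and Lamtor5, or 12.5% each way. Of all tested genes 9.9% were higher and 6.75% lower there. By limma 1 was called higher and 0 lower, with 2 lower at an unadjusted p under 0.05. Of 12 retromer and tethering genes, Vps26b rose over time by 0.43, Vps33a fell by 0.81 and Vps16 fell by 0.55. This made 8.33% higher and 16.7% lower, where 19.8% and 22.1% of all tested genes were. None of the 12 was called against sdAb-Con, at an unadjusted p under 0.05 or by limma.

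The sdAb#07.81 (24 h) libraries could be set against those of sdAb-Con (48 h) only with limma on the counts worked out, and antibody and time differ at once there and cannot be told apart. Of 107 members, 53 were higher in sdAb-Con (48 h), or 49.5%, where 25.3% of all tested genes were, and 16 were lower, or 15%, where 25.9% were. The median log2 difference was 0.38 over the members and 0.00 over all genes tested. It was 0.53 over hydrolases and activators, 0.52 over V-ATPase subunits, 0.40 over membrane proteins and 0.07 over sorting genes. Glb1 was higher by 0.71 (adjusted p 2.77e-05), Tcirg1 by 1.12 (adjusted p 8.37e-08), Lgmn by 1.08 and Cd68 by 1.69, and Gusb was lower, at -0.59. The members that rose from 24 h to 48 h of sdAb#07.81 are thus seen against a 24 h group that has no sdAb-Con library of its own time, so that change with time in culture and change with sdAb#07.81 cannot be told apart.

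Without a test, the spread of the libraries gives a like picture. Against sdAb-Con the libraries of 11 tested members lay wholly higher in sdAb#07.81 (48 h), where 27.9% of all genes did, and those of 55 lay wholly lower, where 31.1% did. Over time 51 members lay wholly higher at 48 h, where 34.8% of all genes did, and 30 wholly lower, where 36.4% did.

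The genes with no lysosomal role by name carry the pathway term through a shared KEGG number. Of 9 tested against sdAb-Con, Atp6v0c-ps2 was called lower (-0.49, adjusted p 0.0118), but not by limma (adjusted p 0.0515) or with the trend removed (-0.11, adjusted p 0.809). Over time Tmppe and Mcpt8 were lower among 8, or 25%, near the 22.1% of all tested genes. Mcpt8, of the mast cell protease family and annotated with the number of cathepsin G, was at 49.2 and 52.2 at 24 h, 20.7 and 21.7 at 48 h, and 18.1 and 33.1 in sdAb-Con. Cd63-ps and the Ap3s1 copies resemble their parent genes, so the division of reads between them is uncertain. Spans overlapping another tested gene were found for 35 members. A mean of 10 was reached in neither table by 27 members. They include the macrophage protein Laptm5, at 0.95 and 0 in sdAb-Con, 0.91 and 0 at 24 h, and 7.25 and 3.26 at 48 h, the dendritic cell protein Lamp3, the iron transporter Slc11a1 and 13 of 14 predicted genes. Just inside the limit lay Ap3s1-ps2 with 10.9 in the comparison with sdAb-Con, and just outside lay the same gene with 9.6 in the comparison over time and Gm8532 with 9.11.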

How the data were processed

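RNA of 4T1 cells was sequenced in 4 groups of 2 libraries, paired-end. Per the submitters' processing notes, the tools were cutadapt 1.9.1, HISAT2 2.0.1 and HTSeq 0.6.1, with the build GRCh38.p14, a human build; the coordinates of the mouse genes are printed as the tables list them, their build not named. The authors deposited, for each of 2 comparisons, the mean over 4 libraries of counts divided by size factors (a signal, called the mean normalized count), a log2 fold change with its standard error, and Wald p-values with their adjustment. These deposited p-values were adjusted again over genes with a mean of at least 10, with a threshold of 0.05.

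Counts per library were solved as whole numbers that give the deposited means in both tables, which share the sdAb#07.81 (48 h) libraries, and 99.6% of tested genes had a solution. Recomputed log2 ratios of the members differed from the deposited ones by at most 0.0073. limma 3.58.1 (R 4.3.3) was fitted to log2(normalized count + 1), its p-values adjusted by Benjamini-Hochberg. The plan named both tests, and the solving, limma and trend steps were checked on simulated data. The trend was a weighted polynomial of degree 3 in transcript length, GC content and log2 mean. Transcript lengths came from GENCODE M21 and promoter windows from RefSeq. The remaining work ran under Python 3.11.15 (scipy 1.17.1, pandas 2.3.3, numpy 2.4.6), and plots were drawn with matplotlib 3.10.9.

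Totals of the counts worked out were 14337530 to 17304621 per library. The median standard error of the members was 0.133 against sdAb-Con and 0.147 over time. Intervals are Wald intervals. Genes named are Glb1, Lamp1, Lamp2 and, per comparison and class, the 3 called members with the largest change in each direction, with further members of the same complex or pathway. The members and lists were chosen with earlier results of these data known. Some members are counted but not reported here by name.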

Additional observations from a re-analysis of the deposited data

How the results depend on the processing

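Against sdAb-Con (48 h), 16 members were called as reported. The number was 3 with a fold change of at least 1.5, 0 with at least 2-fold, 3 with the trend removed, 8 with limma, 9 with limma and a pseudocount of 5, 5 with upper-quartile scaling, and 0 with limma and no filter, where 30 members had an unadjusted p under 0.05 and 7 of 28652 genes were called. Leaving out 1 library in limma gave 0 to 13, with 0 without sdAb#07.81 (48 h) library A, 2 without sdAb-Con (48 h) library B, 3 without its library A and 8 without sdAb#07.81 (48 h) library B. Over time, 54 members became 32 with a fold change of at least 1.5 and 12 with at least 2-fold, and leaving out 1 library gave 44 to 53. For sdAb-Con (48 h) against sdAb#07.81 (24 h), leaving out 1 library gave 52 to 67 in place of 69. The cause of the losses with the trend removed was not tested, and fewer samples enter each fit with a library left out. A lone library was then assumed to vary like the others.

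Glb1 against sdAb-Con turned from -0.10 to 0.00 with the trend removed. Lamp2 turned from -0.01 to 0.01 when centred, 0.00 with limma, with a pseudocount of 5 and without a filter, and 0.06 with upper-quartile scaling. Of 98 values of 14 named genes there, 60 kept direction and side of the threshold and 32 lost the call, and of 143 values of 21 named genes over time 139 kept both and 3 lost the call. The median of the members kept its sign in each setting, -0.16 to -0.10 against sdAb-Con and 0.16 to 0.20 over time. No paired analysis was possible because the libraries worked out from the tables carry no replicate number. With 2 libraries per group, the smallest change called among the members was -0.29 (Laptm4b) against sdAb-Con and 0.23 (Psap) over time.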
